A study of Mus musculus with 16 samples.

Results

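Paneth cells make and release large amounts of antimicrobial peptides, and every one of those peptides has to enter the endoplasmic reticulum (ER) and leave it again. The 40 genes described here encode that route. They were chosen by name and complex, with earlier results of these data already known. The signal recognition particle (SRP) and its receptor gave 6 genes, and the translocon and the translocon-associated protein (TRAP) complex gave 7. Signal peptidase gave 5, the oligosaccharyltransferase (OST) 7, the COPII coat 10 and the ER-Golgi cargo receptors 5. All 40 were in the table of 55414 genes, and all 40 passed the filter on low counts that left 11809 tested genes.

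As background, SRP binds a signal sequence as it emerges from the ribosome and brings the ribosome to its receptor on the ER membrane. The nascent chain enters the Sec61 channel, signal peptidase removes the signal sequence, and OST adds glycans to suitable asparagines. Cargo then leaves in vesicles formed by COPII: the GTPase Sar1 recruits Sec23 and Sec24, which bind cargo and its receptors, and Sec13 and Sec31 form the outer cage. Secretory cells such as Paneth cells are known for an extensive ER.

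RNA was measured in Paneth cells sorted by flow cytometry from the small intestine of C57BL/6J mice. The mice received PBS or DEX first and, 1 h later, PBS or tumour necrosis factor (TNF), and cells were taken 3 h after that. There were 4 libraries in each of 4 groups, named by both injections: PBS+PBS as the control, PBS+TNF for TNF alone, DEX+PBS for DEX alone, and DEX+TNF for both. DEX commonly stands for dexamethasone, a synthetic glucocorticoid, although the labels do not write the name out. The ages of the mice are not given in the sources used here. The labels only number the replicates, and the study describes the libraries of its Paneth cell series, this one included, as coming from individual mice.

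Library totals ran from 7286307 to 15832111 counts. Levels are given as CPM (read counts relative to library size) scaled by trimmed mean of M-values (TMM) factors, except where another unit is named. Those factors ran from 0.418 to 1.502, and 1 library of each group had a much lower factor than the others: PBS+TNF 1 (0.418), PBS+PBS 4 (0.503), DEX+PBS 3 (0.740) and DEX+TNF 3 (0.755). The same 4 libraries had the highest share of counts on alpha-defensin (Defa) genes in their groups, from 47.5% to 59.3%. Sums of cell type markers are in plain CPM, without factors. Paneth cell markers were high throughout, with a summed level of at least 442353 plain CPM in every library. Plasma cells are secretory cells of the gut wall with abundant ER. Of their 6 listed markers Mzb1, Igha and Tnfrsf17 were at 0 in all 16 libraries, and the summed level ran from 0.563 to 12.2 CPM. Goblet cell markers were far higher, with summed levels from 9364 plain CPM in a PBS+PBS library to 22931 plain CPM in PBS+TNF 3. What goblet cells contribute to the levels given here was not tested. Nfkbia, a TNF target, stood at 329.98 and 382 CPM in DEX+TNF 1 and 2. It stood at 28.3 and 41.0 CPM in DEX+TNF 3 and 4, near the 19.5 to 27.3 CPM of DEX+PBS. Tnfaip3 and Cxcl10, which also rose after TNF alone, split the same way. Tnfaip3 was at 115.1 and 109.6 CPM against 2.25 and 7.38 CPM, with 0.687 to 4.13 CPM in DEX+PBS. Cxcl10 was at 26.13 and 32.99 CPM against 0 and 0.1496 CPM, with 0 to 0.241 CPM in DEX+PBS. Why DEX+TNF 3 and 4 differed was not tested. DEX+TNF 4 also had the highest sums of enterocyte (787 CPM), stem cell (1832 CPM), cycling cell (208 CPM) and tuft cell (868 CPM) markers of all libraries. Counts and medians that change with these libraries are also given without them.

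Together the 40 genes took 2944 to 5973 CPM in PBS+PBS before factors were applied, and after scaling the sums ran from 2899 CPM in DEX+TNF 4 to 5984 CPM in PBS+TNF 1. Per kilobase of merged exon, the TRAP subunit Ssr3 was the highest in PBS+PBS at 91.9 ± 27.1 CPM per kb (SD, n = 4). Ddost, an OST subunit, followed at 60.3 ± 22.2 CPM per kb, then the cargo receptor Surf4 at 56.6 ± 12.8, the signal peptidase subunit Spcs3 at 52.9 ± 13.7 and the TRAP subunit Ssr4 at 46.3 ± 35.0. Ddost, Surf4, Spcs3 and Ssr4 did not differ beyond their SDs. At the other end stood the Sec61 channel subunit Sec61g at 0.870 ± 0.592 CPM per kb, the inner coat gene Sec23a at 1.28 ± 0.224 and the inner coat gene Sec24b at 2.59 ± 0.597. The same 3 genes were the lowest when the longest transcript or the coding length replaced merged exons, and 4 of the 5 highest were shared in each case. Sec61g rested on only 537 counts over all 16 libraries. Ddost, Surf4 and Ost4 share 45.8%, 79.8% and 57.1% of their annotated exon bases with Pink1, Surf2 and Agbl5 on the opposite strand, and whether counting used strand is not stated in the sources used here, so their levels are uncertain to that extent.

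On GRCm39 the protein-coding genes on which the results turn most lie as follows: Rpn1 (ENSMUSG00000030062) at chr6:88061458-88082286, Stt3a (ENSMUSG00000032116) at chr9:36640640-36678975, Dad1 (ENSMUSG00000022174) at chr14:54472936-54491561, Ssr2 (ENSMUSG00000041355) at chr3:88483056-88497417 and Sec61g (ENSMUSG00000078974) at chr11:16450320-16458507 for ER entry and glycosylation. For export they are Sec23a (ENSMUSG00000020986) at chr12:59005128-59058914, Sec23b (ENSMUSG00000027429) at chr2:144391970-144432684 and Tmed10 (ENSMUSG00000021248) at chr12:85387249-85421666.

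Within the complexes the levels were far from equal. In the TRAP complex, whose 4 subunits work together, PBS+PBS means ran from 9.54 CPM per kb for Ssr1 to 91.9 for Ssr3. In the COPII coat the outer cage gene Sec31a had the highest level, 22.8 ± 4.18 CPM per kb, and Sec23a the lowest. Per kilobase of coding sequence Sar1a and Sar1b, at 168 and 72.1 CPM per kb, exceeded Sec31a at 59.3. Per kilobase of merged exon, Sec23b, the paralogue of Sec23a, stood at 9.97 ± 2.49 CPM per kb. Sec11c and Sec11a, the alternative catalytic subunits of signal peptidase, had 26.5 ± 18.6 and 7.57 ± 3.38 CPM per kb, and the libraries did not overlap (15.1 to 54.1 against 4.53 to 12.4). Stt3a, the OST catalytic subunit that works on chains during translocation, had 20.9 ± 5.57 CPM per kb and Stt3b, which also acts after it, 9.38 ± 2.53.

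Promoter windows from RefSeq (GRCm38.p6, 250 bases before to 50 after the start) were available for 33 of the 40 genes. Srp19, Srp68, Ssr2, Spcs3, Sec11c, Tmed2 and Lman1 had none. Both strands were searched for motifs of the unfolded protein response, which is known to drive many genes of this route. Motifs of the 2 injected agents' transcription factors were searched for too. An E-box was counted as a separate motif, apart from both classes. The ER stress response element (CCAAT and CCACG with 9 bases between) was in 0 of 33 genes against 0.137% of 27025 genes in the reference table, and its second form (ATTGG and CCACG with 1 base between) in 0 against 0.0444%. The core of the unfolded protein response element (TGACGTG) was in 2 genes, or 6.06%, against 2.22% of all. An E-box (CACGTG), which does not overlap that core in any of these windows, was in 5 genes, or 15.2%, against 8.09% of all. The consensus for NF-kappaB sites was in 0 of 33 against 5.14% of all, and that of the glucocorticoid response element in 0 against 0.537%. The 7 matches are shown because they place the genes that carry such letters in the results that follow, with the motif in capitals, read 5′ to 3′ on the strand named. Every window was matched to a single place in GRCm39, and positions are given on that build.
Sec62, E-box, chr3:30846983-30847008, plus strand: tgtgaggtgtCACGTGaggagcggac
Ssr1, E-box, chr13:38178241-38178266, minus strand: caccgccggcCACGTGatctcccggc
Sar1a, E-box, chr10:61516047-61516072, plus strand: gggggcggggCACGTGcgtgcccgga
Tmed10, E-box, chr12:85421487-85421512, minus strand: agaggcgcgtCACGTGggtgctcccg
Mcfd2, E-box, chr17:87573433-87573458, minus strand: ccacaggggaCACGTGgatccactgg
Sec23a, unfolded protein response element core, chr12:59058781-59058807, minus strand: tcctccccttTGACGTGgcagaggcgg
Sec24d, unfolded protein response element core, chr3:123061109-123061135, plus strand: cccgggcgccTGACGTGgcactagcaa
A match is a description of the letters and does not show that a factor binds there.

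The first comparison asks what TNF alone did. None of the 40 genes was called in PBS+TNF versus PBS+PBS at an adjusted p under 0.05 (edgeR quasi-likelihood test, Benjamini-Hochberg adjustment over all tested genes), whereas 12.5% of all tested genes were. At an unadjusted p under 0.05 there were 4 of the 40, all lower, against 26.4% of all genes, and DESeq2 also called 0. The median log2 fold change was -0.10 for the 40 and -0.03 for all genes, with 25 of the 40 below 0. Single libraries moved that median: it was -0.30 with 31 below 0 without PBS+TNF 1, 0.025 with 19 below 0 without PBS+TNF 4, -0.24 with 30 below 0 when PBS+PBS 3 was left out and -0.0078 with 20 below 0 when PBS+PBS 4 was. For 26 of the 40 the 95% interval lay within a 2-fold change in either direction. The intervals of the other 14 reached beyond it, and those of Stt3a and Sec62 among them lay below 0. Fewer cells of a type and less RNA per cell cannot be told apart in bulk libraries.

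Nfkbia rose in this comparison (log2 fold change 3.92 ± 0.63 SE, adjusted p = 0.001283, edgeR) and so did Tnfaip3 (4.05 ± 0.87, adjusted p = 0.006786), both NF-kappaB targets. Cxcl10, a chemokine gene, rose by 9.81 (adjusted p = 0.00292).

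The lowest p among the 40 was that of Stt3a. Its levels were 246, 230.1, 132 and 176 CPM in PBS+PBS 1 to 4 and 104, 159, 145 and 128 CPM in PBS+TNF 1 to 4. The groups overlapped, since PBS+PBS 3 lay below PBS+TNF 2 and 3. The log2 fold change was -0.55 ± 0.23 (adjusted p = 0.14). Tmed10, a p24 cargo receptor that cycles between ER and Golgi, measured 201, 212, 139.9 and 206 CPM in PBS+PBS and 147, 143, 145 and 123 CPM in PBS+TNF. Only PBS+PBS 3 fell among the TNF libraries, and the fold change was -0.45 ± 0.20 (adjusted p = 0.1598). Sec62, which helps short and slowly inserted chains enter the channel, gave the lowest fold change, -0.59 ± 0.27 (adjusted p = 0.1702). Its levels were 179, 181, 162 and 96.7 CPM in PBS+PBS and 61.6, 147, 96.0 and 106 CPM in PBS+TNF, so that the library of lowest factor was also the lowest in each group. With the log2 factor as a covariate, a fit chosen after the data were seen, Sec62 was called at -0.62 (adjusted p = 0.04596). Sec31a was the fourth gene with an unadjusted p under 0.05 (-0.43 ± 0.20, adjusted p = 0.1712).

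The highest fold change in that comparison, 1.44 ± 0.71 (adjusted p = 0.2095), was that of Sec61g. It came from 1 library. Sec61g stood at 17.3 CPM in PBS+TNF 1 and at 2.41, 3.87 and 2.23 CPM in PBS+TNF 2 to 4, against 2.83, 1.15, 1.01 and 4.40 CPM in PBS+PBS. Without PBS+TNF 1 the fold change was 0.30. With the log2 factor as a covariate Sec61g was the other gene called, at 1.14 (adjusted p = 0.04247).

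The complexes leaned in different directions without a call. All but 1 of the 7 OST genes lay below 0 (median -0.24) and so did 5 of the 6 SRP genes (median -0.16), while 7 of the 10 COPII coat genes lay above 0 (median 0.09). Sec23b was the only one of the 40 whose groups did not overlap, against 19.5% of all tested genes. It measured 80.2, 80.2, 44.0 and 69.2 CPM in PBS+PBS and 98.8, 97.7, 95.7 and 82.5 CPM in PBS+TNF, and every TNF library was above every control. Its log2 fold change was 0.45 ± 0.35 (adjusted p = 0.4625). Enterocyte markers moved with the groups here, with sums of 182 to 380.04 plain CPM in PBS+PBS and 31.3 to 117 plain CPM in PBS+TNF. The lowest enterocyte sum of both groups was in the library of lowest factor, and the sums were not compared after scaling. Paneth cell marker sums overlapped. The part of other cells in these differences was not tested. The plot of fold changes shows the width of the intervals beside these differences.

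**Figure D1:**
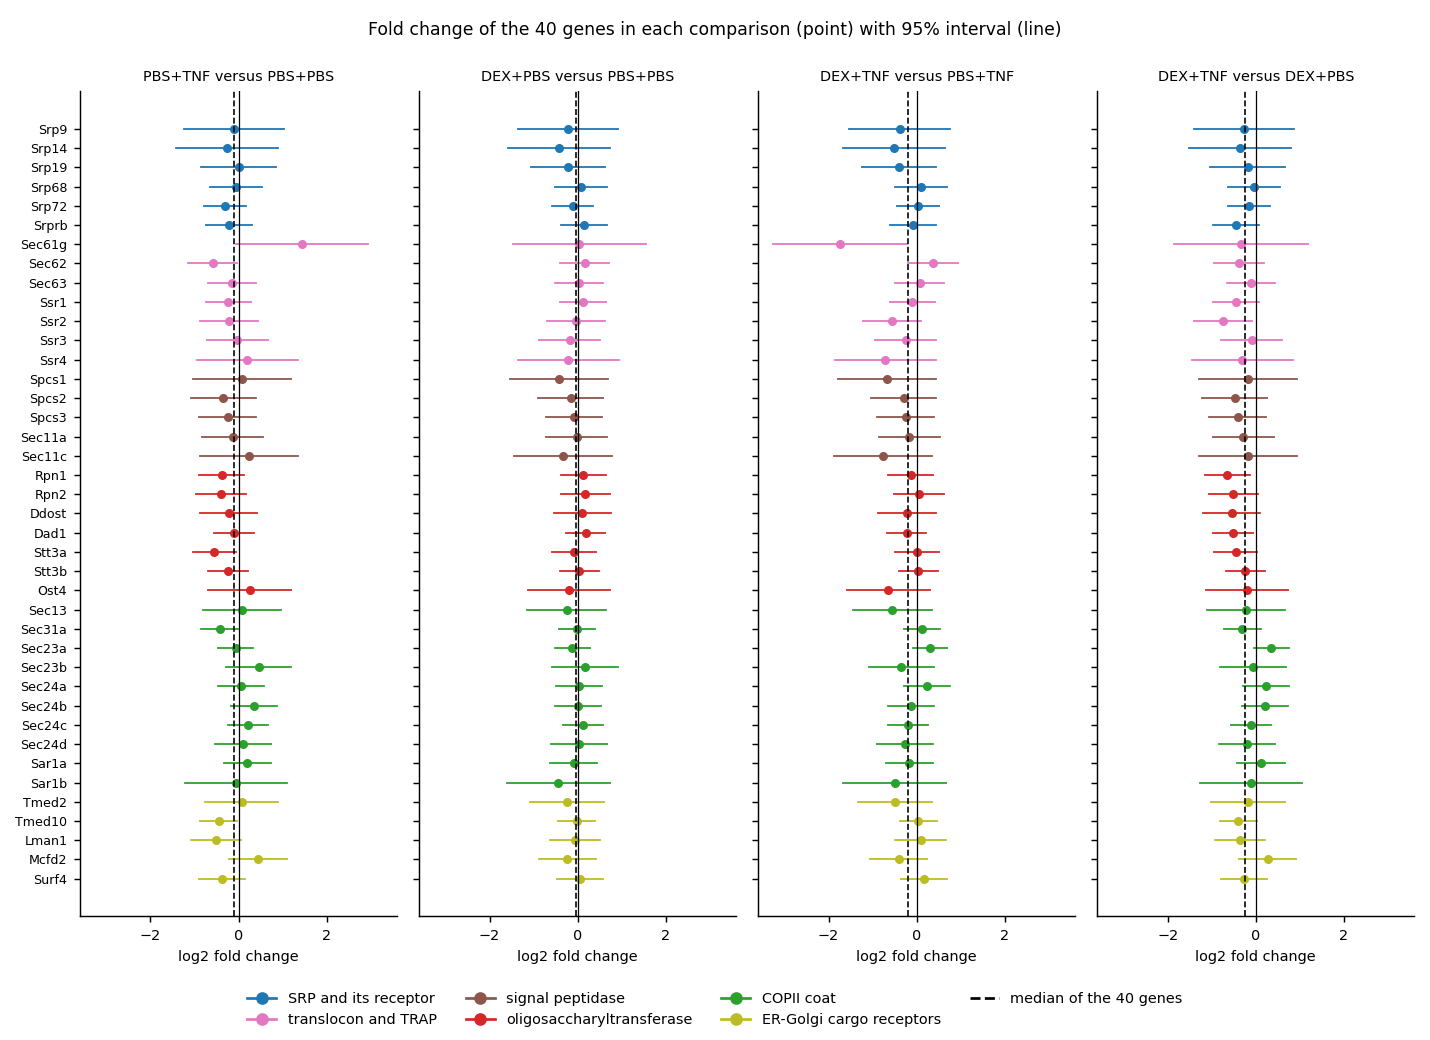
Log2 fold change (x axis) of each of the 40 genes (y axis, in order of role and coloured by it) in the 4 pairwise comparisons, with points for the edgeR estimate, lines for its 95% interval and a dashed line at the median of the 40. In DEX+TNF versus DEX+PBS 35 of 40 points lie left of 0, and Sec61g stands apart at 1.44 in PBS+TNF versus PBS+PBS.

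DEX alone left the smallest differences. In DEX+PBS versus PBS+PBS 0 of the 40 were called, against 0.00847% of all genes, and 0 had an unadjusted p under 0.05, against 1.9% of all. DESeq2 called 0 as well. No member's groups were free of overlap, against 1.88% of all genes. The median log2 fold change was -0.03, and leaving out single control libraries moved it to 0.031 (PBS+PBS 4 left out) or to -0.20 (PBS+PBS 3 left out), and 29 of 40 intervals lay within a 2-fold change. The 3 lowest p-values belonged to Dad1, a small OST subunit (0.18 ± 0.21), to Sar1b (-0.44 ± 0.55) and to Spcs1, a non-catalytic signal peptidase subunit (-0.42 ± 0.52), each with an adjusted p of 1. Dad1 and Sar1b were also the highest and the lowest of the 40. Sar1b measured 30.7, 30.1, 28.1 and 108 CPM in PBS+PBS and 37.9, 25.6, 56.4 and 24.6 CPM in DEX+PBS, so that PBS+PBS 4 set its direction. Without that library the fold changes were 0.27 for Sar1b and 0.14 for Spcs1. Without DEX+PBS 3 the Dad1 difference was 0.0035. Sgk1, a glucocorticoid target, was called in the same comparison at 3.76 ± 0.50 (adjusted p = 0.009976), while the glucocorticoid targets Fkbp5 (2.27, adjusted p = 0.2824) and Tsc22d3 (0.88, adjusted p = 1) were not.

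In TNF-treated mice, DEX given beforehand also left the 40 without a call: DEX+TNF versus PBS+TNF gave 0, against 0.339% of all genes, with DESeq2 at 0 too. One gene had an unadjusted p under 0.05, against 11.9% of all, and no gene's groups were free of overlap, against 6.38%. That gene was Sec61g (-1.74 ± 0.72, adjusted p = 0.3373), again through PBS+TNF 1, without which the difference was -0.59. DEX+TNF levels of Sec61g were 1.61, 0.89, 4.08 and 1.00 CPM. Ssr2 was next (-0.56 ± 0.31, adjusted p = 0.5144), then Sec23a (0.30 ± 0.19, adjusted p = 0.5567). Sec62 had the highest fold change, 0.36 ± 0.27 (adjusted p = 0.6388). The median of the 40 was -0.20 against 0.03 for all genes, with 27 of 40 below 0. Without PBS+TNF 1 the median was -0.02 with 22 below 0, and without DEX+TNF 3 and 4 it was -0.04 with 20 below 0. The lean of the 40 in this comparison depended on those libraries.

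The last pair, DEX+TNF versus DEX+PBS, asks what TNF did after DEX. Again 0 of the 40 were called, against 0.339% of all genes, and DESeq2 called 0. Yet 35 of the 40 lay below 0, with a median of -0.25, where all tested genes had a median of 0.03 and 53.8% lay above 0. A count of 35 below 0 was also found with median-of-ratios, upper-quartile and Defa-free factors. Every SRP, translocon and TRAP, signal peptidase and OST gene was below 0, 25 in all, while 4 of the 10 COPII genes (median -0.08) and 1 of the 5 cargo receptors (median -0.26) lay above 0. An unadjusted p under 0.05 was reached by 3 of the 40, all lower, against 10.4% of all genes.

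OST had the lowest median of the complexes, -0.51 over its 7 genes. Rpn1, a large OST subunit that binds substrates, measured 251, 164, 301 and 245 CPM in DEX+PBS and 144, 150.3, 171 and 146 CPM in DEX+TNF. The DEX+TNF libraries lay close together, and only DEX+PBS 2 fell among them. The log2 fold change was -0.65 ± 0.24 (adjusted p = 0.308), with -0.80 to -0.53 when single libraries were left out. Dad1 measured 94.8, 74.9, 125 and 75.2 CPM in DEX+PBS and 73.2, 68.9, 55.1 and 61.3 CPM in DEX+TNF, with no overlap and a fold change of -0.52 ± 0.21 (adjusted p = 0.3786). Without DEX+PBS 3 it was -0.34. Ssr2, the TRAP beta subunit, measured 112, 72.5, 125 and 119 CPM against 63.4, 58.5, 78.5 and 56.2 CPM, and its fold change of -0.74 ± 0.31 was the lowest of the 40 (adjusted p = 0.3968). Its groups overlapped only through DEX+PBS 2. Sec23a was the highest at 0.36 ± 0.19 (adjusted p = 0.5382), from 10.3, 10.5, 9.39 and 12.5 CPM in DEX+PBS to 13.5, 13.8, 12.2 and 15.2 CPM in DEX+TNF.

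Groups free of overlap were found for 4 of the 40, all lower, against 4.68% of all genes in both directions. Besides Dad1 these were Rpn2, an OST subunit (383, 360.1, 378 and 379.8 CPM against 295, 317, 214 and 230.1 CPM), Stt3b (108, 92.3, 93.8 and 93.9 CPM against 92.0, 84.5, 61.0 and 90.9 CPM) and Sec31a (247, 215, 215 and 214 CPM against 198, 207, 162 and 155 CPM). Their fold changes were -0.51 ± 0.27, -0.24 ± 0.21 and -0.30 ± 0.20, none of them called.

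DEX+TNF 3 and 4, the libraries with Nfkbia near the DEX+PBS level, were the lowest for Dad1, Rpn2 and Sec31a. DEX+TNF 4 held the markers of other cell types given above. Leaving both out gave a median of -0.26 with 28 of 40 below 0 and no call among the 40, while the number of all genes called went from 40 to 1286. OST then had 7 of 7 below 0 (median -0.34), signal peptidase 5 of 5 (-0.42), the translocon and TRAP 6 of 7 (-0.26) and SRP 5 of 6 (-0.24). COPII had 3 of 10 below 0 (0.32) and the cargo receptors 2 of 5 (0.0041), so that the medians of these groups changed sign and those of the other 4 did not. Leaving out DEX+TNF 4 alone gave a median of -0.09 with 25 below 0, and leaving out DEX+PBS 3 alone gave -0.13 with 25 below 0. What those markers contribute to the lower levels was not tested.

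**Figure D2:**
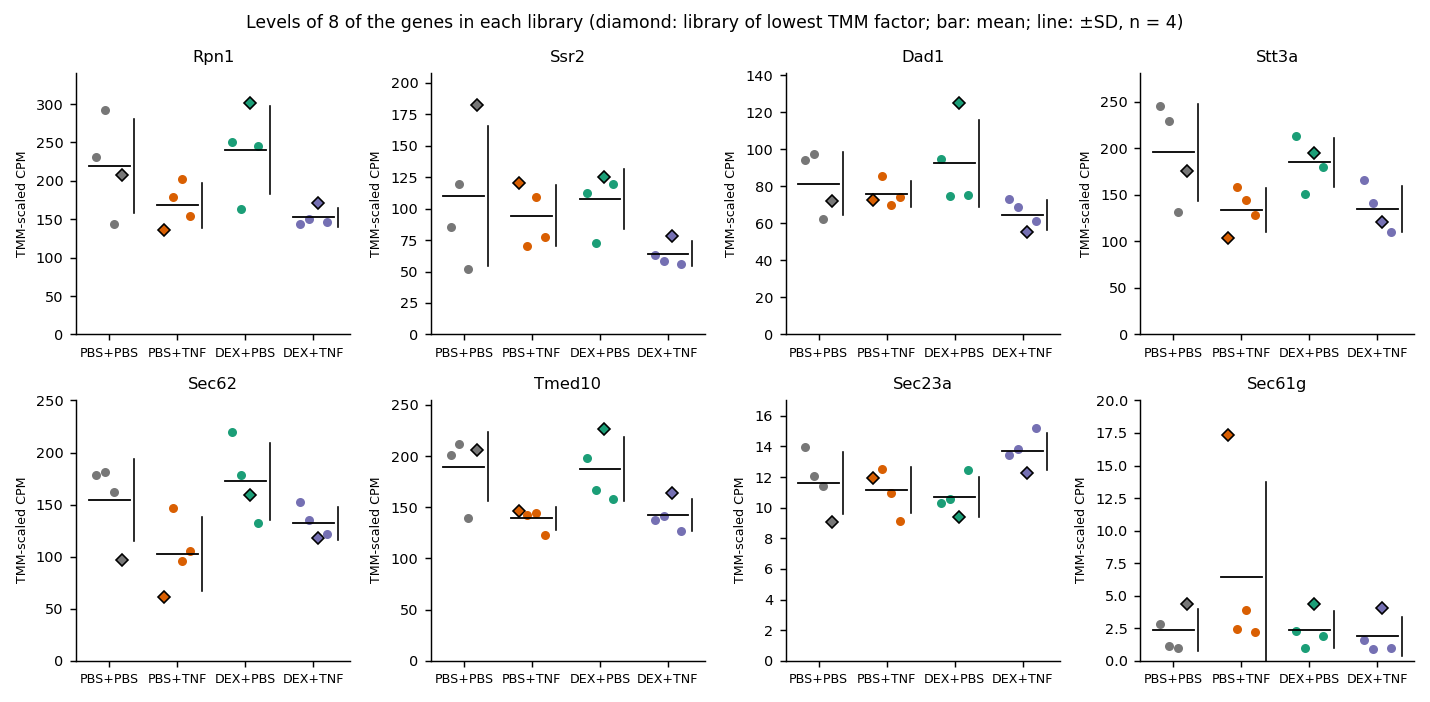
TMM-scaled CPM (y axis, from 0) of 8 genes in each library of the 4 groups (x axis), with a bar at the mean, a line for ± SD (n = 4, ending at 0 where it would pass below) and a diamond for the library of lowest factor. Rpn1 and Ssr2 are low and tight in DEX+TNF, and the Sec61g mean in PBS+TNF rests on the diamond at 17.3 CPM.

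The interaction compares the TNF effect after DEX with that after PBS. It gave 0 calls among the 40 and 0% among all tested genes. An unadjusted p under 0.05 was found for 0 of the 40 and 5.44% of all genes, and DESeq2 called 0 of the 40 and 9 genes in all. Sec61g had the lowest p (-1.78 ± 1.01, adjusted p = 1), followed by Sec23a, which was the highest of the 40 (0.42 ± 0.26), and Dad1 (-0.41 ± 0.30), both with an adjusted p of 1. Sec61g was also the lowest, and its difference was -0.63 without PBS+TNF 1. That of Dad1 was -0.23 without DEX+PBS 3. The median of the 40 was -0.16, and it was 0.057 without PBS+TNF 1. Without DEX+TNF 3 and 4 it was 0.0095, with 20 of the 40 below 0. Leaving out PBS+PBS 3 alone gave 0.011, and leaving out DEX+PBS 3 alone gave 0.0041. Intervals within a 2-fold change were found for 18 of 40. A difference between the TNF effects of that size was not excluded for the rest. All these intervals include DEX+TNF 3 and 4, where Nfkbia was near the DEX+PBS level. They cannot exclude such a difference among libraries with raised Nfkbia. The TNF comparisons before and after DEX use separate libraries, and 28 of the 40 had the same sign in both, 24 of them below 0, where 71.9% of all genes had the same sign.

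Genes that work beside this route were counted as lists. Of 125 listed genes 122 were found and 120 tested. PBS+TNF versus PBS+PBS called 2 of them, both lower, where 12.5% of all tested genes were called, and the other comparisons called 0. Mogs, the glucosidase that trims the first glucose from a new glycan, was lower at -0.79 ± 0.22 (adjusted p = 0.02269), from 45.8, 45.8, 34.9 and 32.9 CPM to 14.4, 27.1, 25.2 and 24.9 CPM. Sel1l, which holds the ER-associated degradation ligase together, was lower at -1.22 ± 0.34 (adjusted p = 0.02381). It measured 261, 247, 204 and 83.7 CPM in PBS+PBS and 49.3, 132, 73.4 and 86.8 CPM in PBS+TNF, with PBS+PBS 4 inside the TNF range. Medians of the 5 lists in that comparison were -0.01 for 22 other targeting and translocation genes, -0.27 for 22 other N-glycosylation genes, -0.09 for 35 other ER exit genes, -0.15 for 13 COPI coat and KDEL receptor genes and -0.23 for 28 unfolded protein response and chaperone genes. Of the 120, 6 had groups free of overlap (2 higher and 4 lower), against 19.5% of all tested genes. The last list of 28 held 3 of them, 2 higher and 1 lower. Xbp1, a transcription factor of the unfolded protein response looked up after its values were seen, measured 288, 277, 237 and 219.9 CPM in PBS+PBS and 411, 475, 356 and 378 CPM in PBS+TNF, with no overlap and no call. In DEX+TNF versus DEX+PBS 92 of the 120 lay below 0, with a median of -0.21.

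Most of the variation of the 40 lay within groups. Over the 40 genes a median of 82.3% of the variance in log2 level lay within groups, where the median over all tested genes was 75.7%. With 4 groups of 4 libraries most of the variance lies within groups even where groups do not differ. The share alone therefore does not show that these genes vary unusually. Srp68 had 98.2% within groups, and Tmed10 had the least at 43.7%. Over all 16 libraries the highest exceeded the lowest by 1.68-fold for Sec23a, 1.69-fold for Sec31a, 6.57-fold for Srp14, 6.94-fold for Ssr4, 7.02-fold for Spcs1 and 19.5-fold for Sec61g. Within PBS+TNF alone the range was 6.25-fold for Srp14, 4.60-fold for Ssr4, 5.55-fold for Spcs1 and 7.78-fold for Sec61g.

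In the library of lowest factor of each group, short genes stood above the other libraries and long genes mostly did not. Of the 21 genes with a coding sequence under 1000 bases, 19, 18, 21 and 17 were above the mean of the other 3 libraries in the 4 groups (PBS+PBS first, then PBS+TNF, then DEX+PBS, then DEX+TNF), with medians of 1.08, 1.05, 0.74 and 0.69 on the log2 scale. For the 19 longer genes the medians were -0.53, -0.09, -0.06 and -0.36. Spearman correlations of coding length with that difference across the 40 genes were -0.77, -0.66, -0.81 and -0.74. Across 11214 tested genes with a coding sequence they were -0.51, -0.37, -0.44 and -0.38. Genes of one library share its RNA and its scaling, and the values are descriptions.

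Short and long subunits of a single complex parted there. Srp14, which with Srp9 forms the part of SRP that slows translation, measured 35.3, 33.5, 23.4 and 94.3 CPM in PBS+PBS, 89.8, 22.2, 30.02 and 14.4 CPM in PBS+TNF, 34.0, 25.3, 59.7 and 20.2 CPM in DEX+PBS and 21.1, 18.5, 49.8 and 18.8 CPM in DEX+TNF. The single high value of each group was the library of lowest factor. Srp68, which binds the other end of the SRP RNA, was lowest in that library in 3 of the 4 groups and measured 46.1, 51.2, 66.8 and 44.4 CPM there.

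Sar1b, the GTPase that starts the COPII coat, gave 108, 111, 56.4 and 62.1 CPM in those 4 libraries and 18.9 to 37.9 CPM in the other 12. Sec13 gave 103, 93.4, 62.9 and 65.0 CPM there and 27.3 to 59.0 CPM elsewhere, while its partner Sec31a gave 168, 168, 215 and 162 CPM there and 155 to 262 CPM elsewhere. The outer cage is built from both proteins. Ost4, the smallest OST subunit with a coding sequence of 111 bases, gave 100.1, 125, 69.0 and 63.1 CPM there and 24.4 to 54.1 CPM elsewhere.

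On the scaled values 16 of the 40 were highest in the library of lowest factor in all 4 groups: Ost4, Srp9, Srp14, Srp19, Sec61g, Ssr2, Ssr4, Spcs1, Spcs2, Spcs3, Sec11a, Sec11c, Ddost, Sec13, Sar1b and Tmed2. With median-of-ratios factors there were 16 and with upper-quartile factors 17. On plain CPM, without factors, only 4 were highest and 19 were lowest in all 4 groups, so that the direction of single genes depends on the scaling. Among the short genes Dad1, Surf4 and Srprb, the beta subunit of the SRP receptor, lacked the pattern, with mean differences of 0.01, -0.25 and -0.14.

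**Figure D3:**
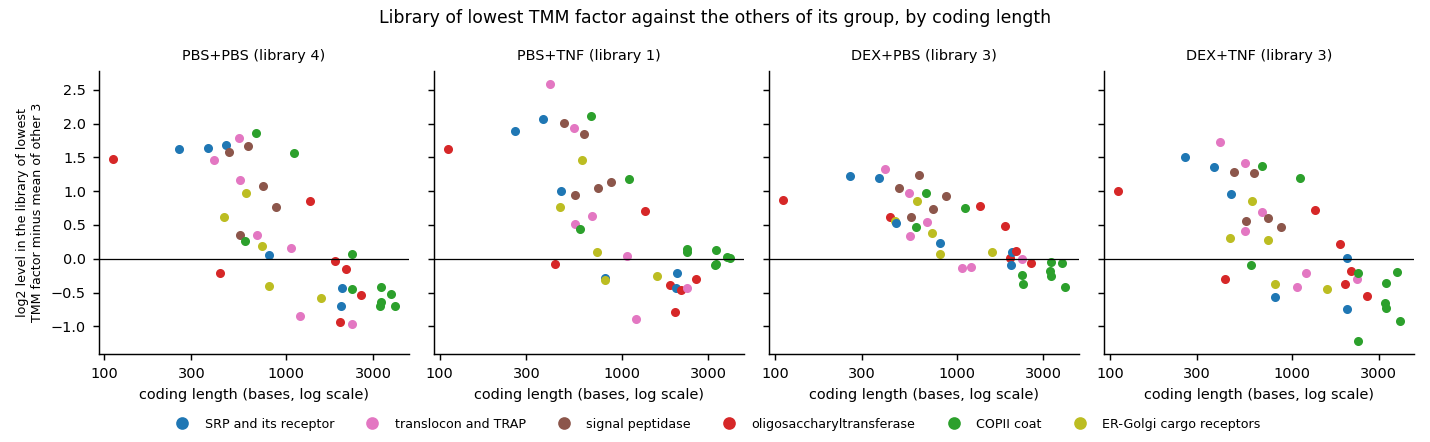
Difference in log2 level between the library of lowest TMM factor and the mean of the other 3 of its group (y axis) against coding length in bases (x axis, log scale), 1 panel per group and 1 point per gene coloured by role. Points fall from left to right in all 4 panels, with Spearman correlations of -0.77, -0.66, -0.81 and -0.74.

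Ratios of counts within a library do not depend on the scaling. Srp14 against Srp68 was 2.05, 1.75, 0.894 and 1.12 in the libraries of lowest factor (groups in the order used above), and 0.198 to 0.495 in the other 12. Ssr4 against Ssr1, both in TRAP, was 4.90, 7.18, 3.34 and 5.09 there and 1.20 to 2.48 elsewhere. These ranges did not overlap. Ost4 against Stt3a (0.352 to 1.21 against 0.156 to 0.374), Spcs1 against Spcs3 (0.437 to 0.836 against 0.280 to 0.479), Sec13 against Sec31a (0.292 to 0.615 against 0.130 to 0.379) and Tmed2 against Tmed10 (0.302 to 0.732 against 0.184 to 0.324) overlapped slightly. Outside the 40, Sec61b, the beta subunit of the channel, moved the same way, with 258, 329, 166 and 155 CPM in those libraries and 48.2 to 119 CPM in the rest, while the long alpha subunit Sec61a1 had 210.3, 191, 299 and 198 CPM there and 192 to 378 CPM in the rest. The 6 ratios were chosen after these values were seen.

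**Figure D4:**
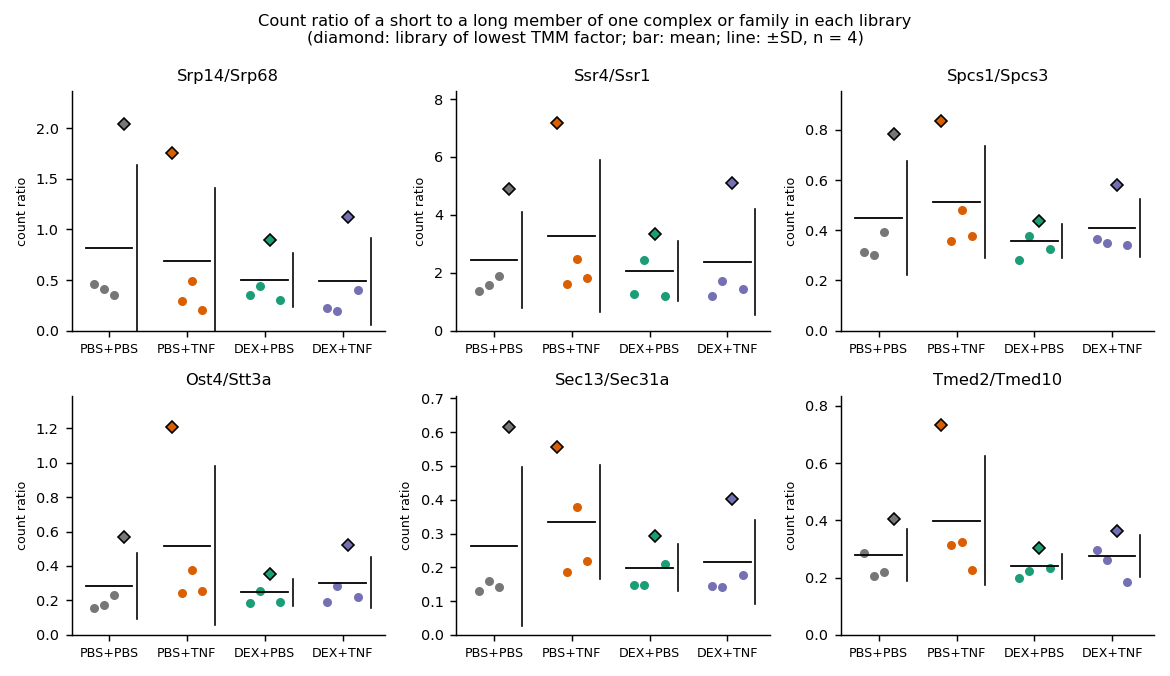
Ratio of counts (y axis, from 0) of a shorter to a longer gene of 1 complex or family in each library of the 4 groups (x axis), with bar, line and diamond for mean, ± SD (n = 4, ending at 0 where it would pass below) and the library of lowest factor. The diamond is the highest library of its group in all 6 panels and all 4 groups.

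Leaving out the library of lowest factor from all 4 groups brought no call among the 40 in any comparison. The median for TNF without DEX was then -0.15, with 28 of the 40 below 0. For TNF after DEX it was -0.26 with 33 below 0, and for DEX in mice given TNF it was -0.08 with 29 below 0.

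Several of the 40 are paralogues that can stand in for each other with different cargo or timing, and the balance of 6 such pairs was compared as the log2 ratio of counts. Each of the 24 tests was a two-sided exact permutation test of 4 libraries against 4, whose smallest possible p is 0.0286. None passed after adjustment over the 24 tests, and the smallest adjusted p was 0.514. A single test at the smallest possible p cannot pass that adjustment, so the adjusted values cannot decide whether any 1 ratio differed. Only 1 test reached the smallest possible p: Sec23b against Sec23a was 2.52, 2.73, 1.94 and 2.93 in PBS+PBS and 3.04, 2.96, 3.12 and 3.17 in PBS+TNF, a mean difference of 0.54. All 4 TNF libraries were above all 4 controls. The same ratio was 3.61, 2.40, 2.67 and 2.39 in DEX+PBS. In DEX+TNF it was 3.07 and 2.87 in libraries 1 and 2 but 1.49 and 1.56 in libraries 3 and 4, the libraries of low Nfkbia. The mean there was 0.83 below that of PBS+TNF (exact permutation p = 0.0857, adjusted p = 0.514). Without DEX+TNF 3 and 4 it was 0.10 below.

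Sec24d against Sec24c, inner coat adaptors of one subfamily, parted in the same libraries, with 0.58 and 0.70 in DEX+TNF 1 and 2 and 0.04 and -0.04 in DEX+TNF 3 and 4. DEX+PBS 2, at 0.05, was as low, and DEX+TNF differed from PBS+TNF by -0.18 in the mean (exact permutation p = 0.4, adjusted p = 0.735), and by 0.14 without DEX+TNF 3 and 4. Sec24b against Sec24a, the other subfamily, was between -1.31 and -0.34 in all libraries, with a difference of 0.31 after TNF (exact permutation p = 0.171, adjusted p = 0.735). Stt3b against Stt3a differed by 0.32 after TNF (exact permutation p = 0.0857, adjusted p = 0.514), from -1.02, -1.06, -0.80 and -1.33 to -0.60, -0.88, -0.87 and -0.57.

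Sar1b against Sar1a was set by the libraries of lowest factor, -0.08, -0.36, -1.08 and -0.59, where the other 12 lay between -2.43 and -1.29. Sec11c against Sec11a was highest in the library of lowest factor in every group, at 2.59, 3.03, 2.26 and 2.45. No test of either ratio reached the smallest possible p. Exact permutation p-values were 0.257 to 0.857, and adjusted p-values were 0.735 to 0.943. Sar1b and Sec24a overlap by 149 exon bases on opposite strands of chromosome 11, so that their counts may not be fully separate.

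**Figure D5:**
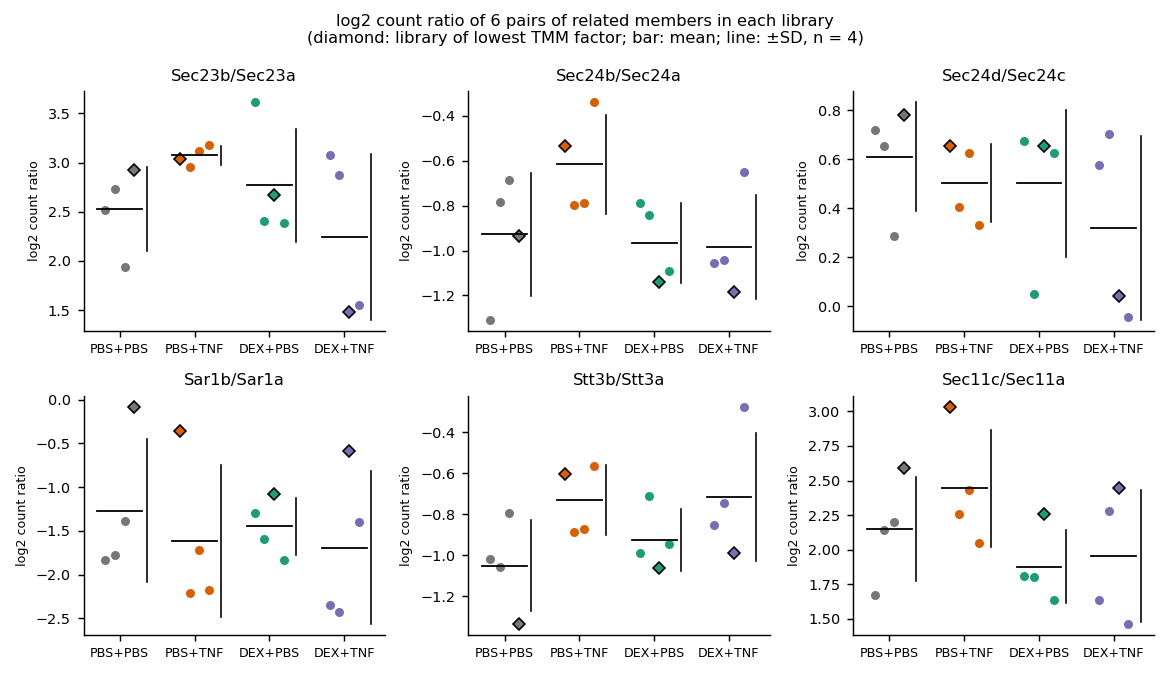
Log2 ratio of counts (y axis) of 6 pairs of related genes in each library of the 4 groups (x axis), with bar, line and diamond for mean, ± SD (n = 4) and the library of lowest TMM factor. Sec23b/Sec23a in PBS+TNF lies between 2.96 and 3.17, above all PBS+PBS libraries, and falls to 1.49 and 1.56 in 2 of the DEX+TNF libraries.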

How the data were processed

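RNA-seq libraries of sorted Paneth cells were made, per the labels, from total RNA with a stranded mRNA kit. The deposited values are raw counts per gene, which the authors made from reads aligned with STAR. The submitters' processing notes name STAR 2.7.10a, FastQC 0.12, DESeq2 and mm39. The methods of the study give GENCODE M30 for its own alignment of reads, and do not say that the deposited counts used it. The counting program and its strand setting are not given in the sources used here. Totals of 7286307 to 15832111 counts limit the precision of low genes such as Sec61g.

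Groups and replicate numbers came from the labels. Genes were filtered with filterByExpr (11809 kept), scaled with TMM and fitted over all 16 libraries with a mean per group (edgeR 4.0.16, robust quasi-likelihood; R 4.3.3; limma 3.58.1), testing 5 contrasts with Benjamini-Hochberg adjustment and calling genes at an adjusted p under 0.05. The pairwise tests were checked on simulated counts, with genes drawn independently of each other. That setting holds no shared pattern by coding length and does not cover the interaction, so the check cannot speak for either. Paralogue ratios (pseudocount 0.5) were tested by exact permutation. Names, positions and lengths came from GENCODE M39 (54749 identifiers matched). Alternatives were other scalings and filters, DESeq2 1.42.0, the 2 groups alone, a replicate block and leaving libraries out. Members and lists were chosen with earlier results of these data known. By rule, called genes were named in each comparison, or the 3 of lowest p where fewer than 3 were called, with the highest and lowest fold change, the 5 highest and 3 lowest levels, called genes of the related lists and 6 check genes.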

Additional observations from a re-analysis of the deposited data

Results flagged for a closer look

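Of 160 groups of 4 libraries (40 genes in 4 groups), 25 held a library that stood apart by Dixon's test at the 95% level. Chance gives about 8 where groups are independent and levels normal. The genes share libraries, so the excess over that figure is a description and not a test. The library was high in 22 of them, and 17 were in the library of lowest factor of its group. Each gene is given with its level there, followed in brackets by the range of the other 3 libraries. The library concerned was DEX+TNF 3 for Srp9 79.3 CPM (27.5 to 28.4), Srp14 49.8 CPM (18.5 to 21.1), Sec13 65.0 CPM (27.3 to 29.1) and Sar1b 62.1 CPM (22.8 to 24.8). In PBS+PBS 4 they were Srp14 94.3 CPM (23.4 to 35.3), Ssr4 651 CPM (149 to 228), Spcs1 195 CPM (52.0 to 76.1), Sec11c 387 CPM (108 to 149.8), Ost4 100.1 CPM (30.4 to 40.3), Sec13 103 CPM (31.5 to 42.1) and Sar1b 108 CPM (28.1 to 30.7). PBS+TNF 1 held Sec61g 17.3 CPM (2.23 to 3.87) and Sar1b 111 CPM (18.9 to 34.1). Apart from its group in DEX+PBS 3 stood Spcs1 120.0 CPM (54.3 to 62.1), Sec11c 263 CPM (101 to 128), Ost4 69.0 CPM (34.7 to 39.8) and Tmed2 68.5 CPM (36.8 to 39.6). For PBS+PBS 3 the list was Spcs3 132 CPM (low, 233 to 249) and Tmed10 139.9 CPM (low, 201 to 212). The library concerned was DEX+PBS 1 for Stt3b 108 CPM (92.3 to 93.9), Sec31a 247 CPM (214 to 215) and Sec23b 127 CPM (55.9 to 65.5). In PBS+TNF 2 they were Sec24a 56.4 CPM (37.1 to 40.3) and Sec24c 111 CPM (90.9 to 92.5). PBS+TNF 4 held Tmed10 123 CPM (low, 143 to 147). The cause was not tested. No gene moved one way in every library of one contrast and the opposite way in every library of its counterpart.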

How the results depend on the processing

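None of the 40 genes was called in any comparison under 24 planned settings (other scalings and filters, DESeq2, the compared groups alone, a replicate block, single libraries left out). Of 3 settings added after the data were seen, the log2 factor as a covariate called 2 genes in PBS+TNF versus PBS+PBS, with 2371 genes called in all; the other 2 left out libraries and called none of the 40. Medians of the 40 moved by less than the spread of library medians (0.29, log2), a wide limit beside their size. With single libraries left out they ran from -0.30 to 0.025 for TNF, -0.20 to 0.031 for DEX, -0.30 to -0.018 for DEX with TNF, -0.42 to -0.087 for TNF after DEX and -0.31 to 0.057 for the interaction.

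Counts of all genes called moved most, and the cause was not tested. DEX+PBS versus PBS+PBS went from 1 to 7 with DESeq2, 0 without the libraries of lowest factor, 2 without DEX+TNF 3 and 4, and 3 with the covariate. DEX+TNF versus PBS+TNF went from 40 to 274 with DESeq2, 0 with the compared groups alone, 16 with the replicate block, 2 and 0 without those same sets of libraries, and 150 with the covariate. DEX+TNF versus DEX+PBS went from 40 to 6 with no filter, 259 with DESeq2, 0 with the compared groups alone, 0 with the block, 255 and 1286 without those sets, and 1 with the covariate. The interaction went from 0 to 9 with DESeq2. Leaving out single libraries gave 916 to 1698, 0 to 2, 0 to 102, 0 to 362 and 0 to 1 calls, in the order TNF, DEX, DEX with TNF, TNF after DEX and interaction.

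In DEX+PBS versus PBS+PBS, Dad1 turned to -0.059 without the libraries of lowest factor and Sar1b to 0.015 with the covariate. With single libraries left out Sar1b ran from -0.74 to 0.27 and Spcs1 from -0.76 to 0.14. Some ratios also changed sign then. Against PBS+PBS, DEX+PBS gave -0.043 to 0.37 for Sec23b/Sec23a, -0.16 to 0.042 for Sec24b/Sec24a, -0.22 to 0.042 for Sec24d/Sec24c and -0.37 to 0.22 for Sar1b/Sar1a, and PBS+TNF gave -0.77 to 0.051 for Sar1b/Sar1a. DEX+TNF versus PBS+TNF gave -0.44 to 0.34 for Sar1b/Sar1a and -0.13 to 0.11 for Stt3b/Stt3a. DEX+TNF versus DEX+PBS gave -0.13 to 0.051 for Sec24b/Sec24a, -0.61 to 0.0041 for Sar1b/Sar1a and -0.084 to 0.24 for Sec11c/Sec11a. Without DEX+TNF 3 and 4, a setting added after the data were seen, Sec24d/Sec24c turned to 0.1372 against PBS+TNF and 0.1392 against DEX+PBS, Stt3b/Stt3a to -0.069 against PBS+TNF and Sec23b/Sec23a to 0.205 against DEX+PBS.

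Replicate numbers were not taken as pairs: same-numbered libraries correlated at -0.365 to 0.504, with 12 of 24 pairs over 0.1, among them all 6 of number 2, and the replicate block called 0 of the 40 in every comparison. Libraries of one group differed by more than counting noise. Depth limits Sec61g most, with 537 counts in all.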
